A study of Mus musculus with 4 samples.

Results

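The genes of IL-24, LIF and the colony-stimulating cytokines were followed in effector Th1 and Th17 cells sorted for high or low CD30, a TNF family receptor at the cell surface. They are Il24, Lif, Csf1, Csf2, Il2, Il3 and Il10, which are 7 of the 18193 genes named on the arrays, and all array probe sets annotated to them were read. The set was chosen by measured values, since Il24, Lif and Csf1 had higher signals in CD30high cells, so the comparisons of CD30high with CD30low cells are given as a description without a test. The groups were CD30high Th17, CD30low Th17, CD30high Th1 and CD30low Th1 cells of the mouse, with 1 array each, so no value has a replicate error. All cells came from CD44low CD4 T cells of the spleen and were cultured for 6 days. Th17 cultures contained 10 ng/ml each of IL-6, IL-1β and IL-23 with 10 µg/ml of antibodies to IL-4 and to IFN-γ. Th1 cultures contained IL-2 at 30 U/ml, IL-12 at 100 U/ml and 1 µg/ml of antibody to IL-4. By the methods, naive cells with a transgenic T cell receptor for ovalbumin (DO11.10 or OTII) were stimulated with peptide and irradiated splenocytes depleted of T cells. The labels do not say which of these strains was used for which array, and RNA was taken at harvest with no restimulation named. They describe the starting cells as CD62Lhi for the CD30high samples and CD62Llow for the CD30low samples, whereas the methods state high CD62L for all, and on the labels' account the gate and the starting cells cannot be told apart.

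Cytokines of this kind carry signals from activated helper T cells to other cells. IL-24 belongs to the IL-10 family and acts on epithelial and stromal cells through receptors that share the chain IL-20RB. LIF belongs to the IL-6 family and signals through LIFR paired with gp130, the product of Il6st. The growth factors CSF1, GM-CSF (Csf2) and IL-3 act on macrophages, granulocytes and their progenitors. IL-2 is the T cell growth factor, and IL-10 dampens inflammatory responses.

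The arrays matched their labels in the lineage genes. Il17a was between 1398 and 14443 in Th17 and below 50 in Th1 cells (49.4 and 37.7), while Ifng was between 76.0 and 106 in Th17 and between 2506 and 3423 in Th1 cells. Tnfrsf8, the gene of CD30, was dim, with 132 in CD30high and 34.9 in CD30low Th17 cells and 51.1 in CD30high and 13.3 in CD30low Th1 cells. Only the CD30high Th17 array exceeded the background limit of 100, so the gate could not be checked by this gene in Th1 cells. The Y-linked gene Eif2s3y was below 10 in Th17 cells (9.39 and 1.41) and at least 1640 in Th1 cells. The lineage comparisons therefore also compare material of different sex-linked expression, and the lineage and this difference cannot be told apart. In sorted populations of this kind, fewer cells that make a transcript and less transcript per cell cannot be told apart either.

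Signals are linear probe set intensities, and a signal below 100 was taken as background and set to 100 before a ratio was formed. A ratio against such a signal is a lower bound. Higher or lower was counted for a difference of 2-fold or more between a pair of arrays of which the brighter reached 300. The 7 genes were represented by 11 probe sets annotated to a single gene, namely 4 for Csf1, 2 for Lif and 1 for each of the others. Another probe set carried the symbol of Il2 together with that of a second gene and was not used. On at least 1 array, 4 genes reached 300 (Il24, Lif, Csf1 and Il10). The remaining 3 did not (Csf2, Il2 and Il3), and Il3 was below 100 on every array. Where a gene had several probe sets the brightest was used. The log2 ratios of probe sets for the same gene differed with an SD of 0.18 in the Th17 and 0.22 in the Th1 comparison of the CD30 gates, over 2462 genes. This SD was taken from probe sets with at least 300 on all 4 arrays. No probe set of the 7 genes reached that, so the SD may be too small for them.

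**Figure D1:**
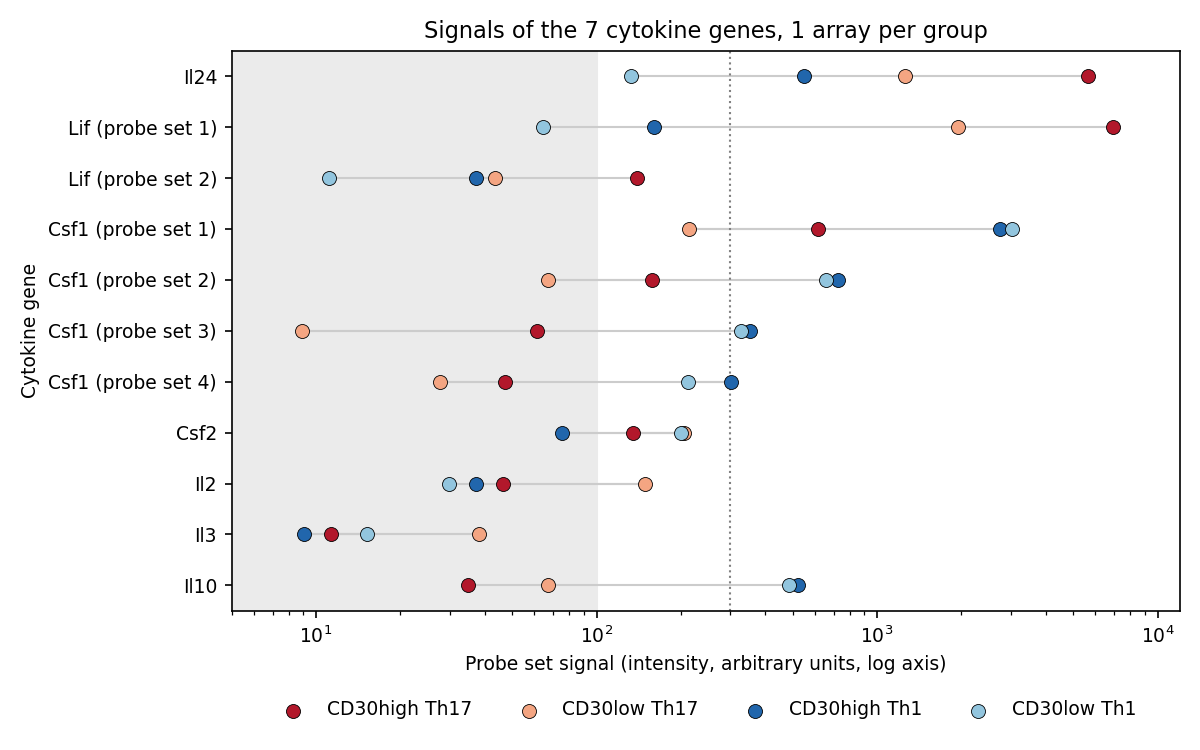
Signal of every probe set (x axis, intensity in arbitrary units, log axis) for the 7 cytokine genes (y axis), 1 point per array, with probe sets of a gene numbered by brightness. The grey area marks signals below 100 and the dotted line a signal of 300; Il24 and Lif lie farthest right in CD30high Th17 cells, whereas Csf1 and Il10 lie farthest right in the Th1 cells.

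The promoters of Lif and Csf1 are shown because these genes, with Il24, had the higher signals in CD30high Th17 cells that chose the set. RefSeq sequences in build GRCm38.p6 were at hand for 5 of the 7 genes (Lif, Csf1, Csf2, Il2 and Il3). The 250 bases before the transcription start are printed 5′ to 3′ on the strand of the gene, for Lif at chr11:4257318-4257567 on the plus strand and for Csf1 at chr3:107760470-107760719 on the minus strand. Capitals mark matches on either strand to the motifs searched.
Lif: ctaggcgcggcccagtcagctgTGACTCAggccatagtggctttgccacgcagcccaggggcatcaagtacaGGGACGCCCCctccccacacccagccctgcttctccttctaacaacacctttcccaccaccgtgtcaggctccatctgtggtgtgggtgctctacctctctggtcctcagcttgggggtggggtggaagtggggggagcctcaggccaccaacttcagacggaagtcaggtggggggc
Csf1: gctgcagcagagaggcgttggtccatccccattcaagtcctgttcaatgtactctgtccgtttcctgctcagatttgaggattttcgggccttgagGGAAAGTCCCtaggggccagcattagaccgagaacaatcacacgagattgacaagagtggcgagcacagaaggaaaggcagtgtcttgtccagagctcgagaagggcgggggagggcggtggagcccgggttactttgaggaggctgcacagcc

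The Lif promoter held 1 match to the AP-1 motif TGANTCA, which starts 228 bases before the transcription start, and 1 match to the kappaB consensus, which starts 178 bases before it. The Csf1 promoter held 1 kappaB match, 154 bases before the start. Neither held a match to the cyclic AMP element TGACGTCA, the STAT motif TTCNNNGAA or the NFAT motif TGGAAA. The promoters of Csf2, Il2 and Il3 held 1 NFAT match each and none of the other motifs. Among the 32851 promoter windows of this length, 6.75% held an AP-1 match, 7.25% a kappaB match, 18.6% an NFAT match, 7.02% a STAT match and 1.55% a cyclic AMP element. The motifs did not overlap within the 2 printed promoters, and a match describes these letters only.

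Il24 was the member that was higher in CD30high cells of both lineages. Its signal was 5672 in CD30high and 1257 in CD30low Th17 cells, and 548 in CD30high and 132 in CD30low Th1 cells. The ratio of CD30high over CD30low cells was 4.51 in Th17 and 4.15 in Th1 cells. On the log2 scale these ratios were 2.17 and 2.05, and their difference of 0.12 was not tested. It depended on the processing, since the values were 2.12 and 1.82 with median centring of the arrays and 2.17 and 1.46 with a floor of 200. All 4 signals exceeded 100, so neither ratio rests on a background value. A single probe set measured Il24, and no second one was at hand to check it.

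Lif was brightest in CD30high Th17 cells. Its brighter probe set had 6914 in CD30high and 1951 in CD30low Th17 cells, a ratio of 3.54. In Th1 cells it had 161 in CD30high and 64.6 in CD30low cells, which is at least 1.61-fold higher but below the signal limit of 300. The second probe set of Lif was dim and reached 100 only in CD30high Th17 cells, with 139 against 43.6 in CD30low Th17 cells. In Th1 cells it had 37.2 in CD30high and 11.1 in CD30low cells, both below 100. In both probe sets the CD30high Th17 array was thus the brightest of the 4.

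Csf1, which encodes the growth factor of macrophages, was higher in CD30high cells of the Th17 lineage. Its brightest probe set had 616 in CD30high and 214 in CD30low Th17 cells, a ratio of 2.87. The second had 158 in CD30high and 67.0 in CD30low Th17 cells, at least 1.58-fold. The remaining 2 were below 100 in both Th17 arrays, with 61.5 and 47.2 in CD30high and 8.91 and 27.6 in CD30low cells. The CD30high array was thus the brighter one in the 2 probe sets with a signal above 100 in Th17 cells, and 1 of them passed the rule. When the probe sets were averaged the log2 ratio was 0.54, and with the most variable probe set both Th17 signals were background, so the count for Csf1 depends on the brightest probe set.

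In Th1 cells Csf1 did not differ by the rule. The brightest probe set had 2733 in CD30high and 3016 in CD30low Th1 cells, a log2 ratio of -0.14. The others gave ratios of 1.10, 1.07 and 1.42, with 725 and 659, 352 and 327, and 301 and 211 in CD30high and CD30low cells. The direction within Th1 cells thus depended on the probe set, and no ratio reached 1.5-fold.

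Csf2, the gene of GM-CSF, was dim on every array and did not share the direction of Il24. It had 135 in CD30high and 205 in CD30low Th17 cells, and 75.2 in CD30high and 200.3 in CD30low Th1 cells. Both CD30low arrays were thus the brighter ones. In Th1 cells the difference was at least 2-fold, yet the brighter signal missed 300, so Csf2 did not count as lower. Il2 had 46.5 in CD30high and 149 in CD30low Th17 cells, and 37.2 in CD30high and 29.8 in CD30low Th1 cells. It exceeded 100 on the CD30low Th17 array only. Il3 had 11.3 in CD30high and 38.0 in CD30low Th17 cells, and 9.10 in CD30high and 15.2 in CD30low Th1 cells, so no fold is given.

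Il10 was measured in Th1 cells alone. It had 522 in CD30high and 487 in CD30low Th1 cells, a ratio of 1.07. The log2 ratio of 0.10 is less than the SD between probe sets and was -0.13 with median centring of the arrays. The Th17 signals were background, with 34.7 in CD30high and 67.2 in CD30low cells.

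By the rule, 3 of the 7 genes were higher and 0 lower in CD30high Th17 cells, where 3.94% of 7786 genes that reached 300 were higher and 3.66% lower. In CD30high Th1 cells 1 was higher and 0 lower, where 0.794% of 7813 genes were higher and 0.486% lower. These shares cover only genes that reached 300, as 3 of the 7 members did in each comparison. With median centring 25 genes were higher and 118 lower in CD30high Th1 cells, against 62 and 38 without it, and the median moved to -0.27. The set was chosen on these values, so nothing follows from these counts. Closest inside the rule was Csf1 in Th17 cells (616 against 214). Closest outside it were Csf2 in Th1 cells (75.2 against 200.3) and Lif in Th1 cells (161 against 64.6). Csf2 missed the signal limit only. Lif missed the signal limit, and its ratio, a lower bound of 1.61, did not reach the fold limit either. Among the genes that reached 300 in Th17 cells, the ratio of Il24 ranked 52nd from the top, that of Lif 88th and that of Csf1 132nd. Of the 62 genes higher in CD30high Th1 cells, 27 (43.5%) were also higher in CD30high Th17 cells, or 8.79% of the 307 genes there, and Il24 was the only member among them.

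**Figure D2:**
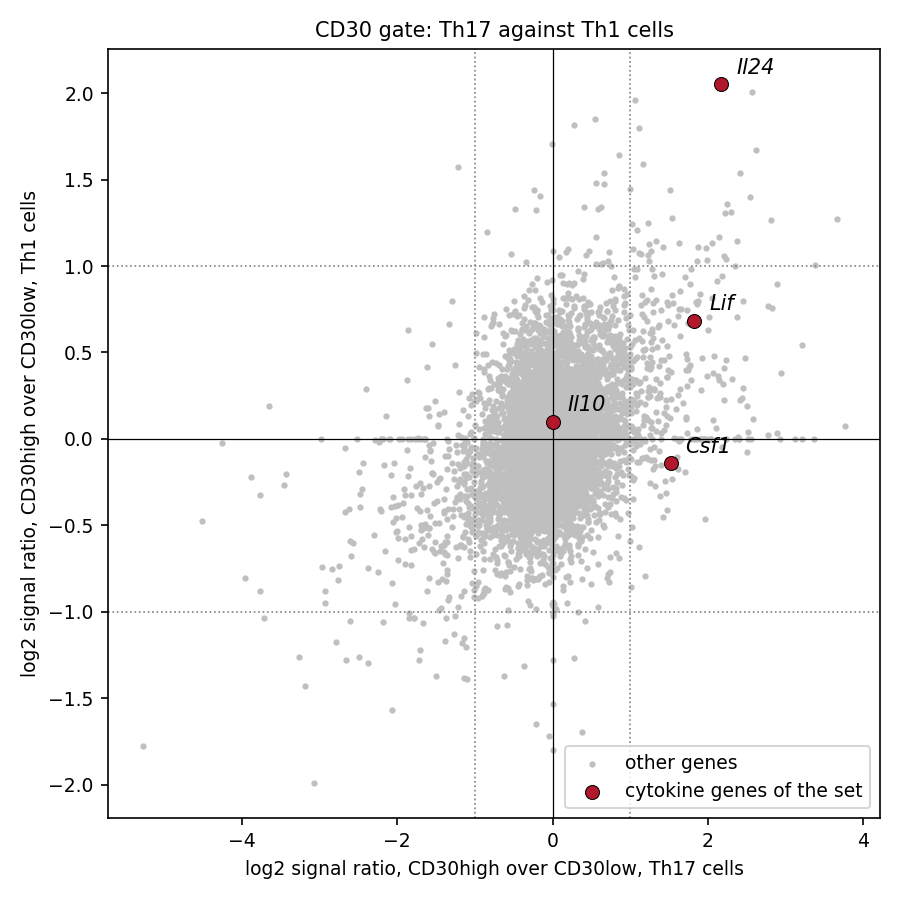
Log2 signal ratios of CD30high over CD30low cells in Th17 (x axis) and Th1 cells (y axis) for 8227 genes with a signal of at least 300 on an array; dotted lines mark 2-fold and red points the 4 cytokine genes that reached 300. Il24 lies past 2-fold on both axes (2.17 and 2.05), Lif and Csf1 on the Th17 axis only (1.83 and 1.52), and Il10 on neither.

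The rule that chose the genes does not name the lineage difference, but the lineage ratios share their signals with the comparison of the gates that it used, so they too are a description. Between the lineages the set split, with Il24 and Lif higher and Csf1 and Il10 lower in Th17 than in Th1 cells, in both CD30 gates. Each gate thus had 2 higher and 2 lower members among the 4 that reached 300. Of 7979 genes in CD30high cells 4.98% were higher and 6.86% lower in Th17 cells, and of 7857 genes in CD30low cells 3.53% were higher and 5.83% lower. With median centring of the arrays, which moved the median ratio of these genes to a log2 value of 0.47 among CD30high and 0.25 among CD30low cells, 1127 genes were higher and 288 lower among CD30high cells, against 397 and 547 without it. Among CD30low cells 558 were higher and 300 lower, against 277 and 458. The members split in the same way under both scalings. No test was made, because each lineage had 1 array per gate.

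Lif was higher in Th17 cells in both gates. With its brighter probe set, the signal was 6914 in CD30high Th17 against 161 in CD30high Th1 cells, a ratio of 43.1, which ranked 4th from the top of the 7979 genes. In CD30low cells it was 1951 in Th17 against 64.6 in Th1 cells, at least 19.5-fold higher. The size of this ratio depended on the probe set and the floor. The dim second probe set had 139 in CD30high Th17 and 37.2 in CD30high Th1 cells, and was below 100 in both lineages among CD30low cells. With the mean of both probe sets the log2 ratio of Lif was 2.95 among CD30high and 2.14 among CD30low cells, against 5.43 and 4.29 with the brighter one, and with a floor of 200 it was 5.11 and 3.29. Il24 was 10.3-fold higher in Th17 among CD30high cells (5672 against 548) and 9.50-fold among CD30low cells (1257 against 132). On the log2 scale the lineage ratio of Il24 was 3.37 in CD30high and 3.25 in CD30low cells, and 3.37 and 2.65 with a floor of 200.

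Csf1 ran the other way. It was 4.44-fold lower in Th17 than in Th1 among CD30high cells (616 against 2733) and 14.1-fold lower among CD30low cells (214 against 3016), which ranked 13th from the bottom of the 7857 genes. All 4 probe sets were dimmer in Th17 cells in both gates. All 4 passed the rule among CD30high cells, and 3 of 4 did among CD30low cells, the fourth having 27.6 in Th17 and 211 in Th1 cells. Within Th17 cells the CD30high gate was thus the one with the smaller distance to the Th1 level of Csf1.

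Il10 was at least 5.22-fold lower in Th17 among CD30high cells (34.7 against 522) and at least 4.87-fold lower among CD30low cells (67.2 against 487). Il10 and Il24 belong to 1 cytokine family and lie near each other on mouse chromosome 1, with Il20 and Il19 between them in the reference annotation (GRCm38.p6). Il20 was below 100 on every array, and Il19 was not named in the annotation used here. The flanking genes were bright in both lineages. Fcmr, next to Il24, had 865 and 1080.2 in CD30high and CD30low Th17 cells and 686 and 571 in CD30high and CD30low Th1 cells. Mapkapk2, next to Il10, had 1838 and 1258 in CD30high and CD30low Th17 cells and 822 and 1006 in CD30high and CD30low Th1 cells. Neither flanking gene differed 2-fold between the CD30 gates. Of the genes within 3 places of a member, 2 more are named after their values were seen. Gstm5, near Csf1 on chromosome 3, had 340.1 in CD30high and 132 in CD30low Th17 cells, and 343 in CD30high and 319.6 in CD30low Th1 cells, a pattern between the gates like that of Csf1. Pdlim4, near Csf2 on chromosome 11, had 11.9 in CD30high and 690.1 in CD30low Th17 cells, and 12.5 in CD30high and 226 in CD30low Th1 cells. Between the lineages Mapkapk2 was higher in Th17 among CD30high cells, with a log2 ratio of 1.16.

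**Figure D3:**
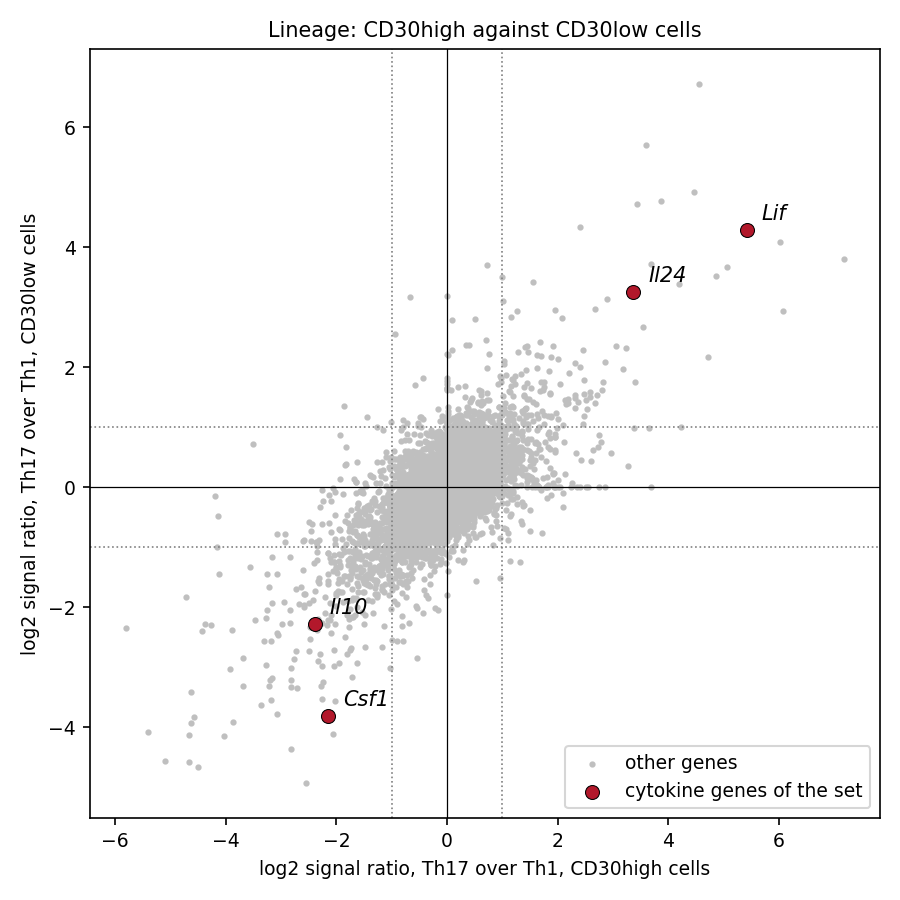
Log2 signal ratios of Th17 over Th1 cells among CD30high (x axis) and CD30low cells (y axis) for 8227 genes with a signal of at least 300 on an array; dotted lines mark 2-fold and red points the 4 cytokine genes that reached 300. Lif (5.43 and 4.29) and Il24 (3.37 and 3.25) lie at the upper right, Csf1 (-2.15 and -3.81) and Il10 (-2.38 and -2.28) at the lower left.

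Other members of the same cytokine families were compared with the set. The counts of this and the later lists are to be read beside the shares over all genes given above. All lists were drawn up with earlier results of these data known, so nothing follows from their counts. In the IL-6 family, 7 of 9 entries were named in the annotation, and 2 were higher and 1 lower in CD30high Th17 cells. Beside Lif, Ebi3, which encodes a subunit of IL-27 and IL-35, was higher with 1507 in CD30high against 499.5 in CD30low Th17 cells (3.02-fold). Clcf1, the gene of a cardiotrophin-like cytokine, was lower with 208 against 656 (3.16-fold) by its brightest probe set. The second probe set of Clcf1 had 120 against 199 and did not pass, and the third was below 100 in both Th17 arrays. Osm encodes oncostatin M and is the neighbour of Lif on chromosome 11. It did not pass in Th17 cells, with 1971 in CD30high and 2883 in CD30low cells, and thus had the opposite direction to Lif there. In Th1 cells no gene of this family passed, and Osm had 947 in CD30high and 786 in CD30low cells. The median log2 ratio over the 5 family genes that reached 100 was 0.16 in Th17 and 0.17 in Th1 cells, against 0.02 and 0.00 over all genes.

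Among haematopoietic growth factors 7 of 10 entries were named, and Csf1 was the only one of them to reach 300 on any array. Csf3, Il34 and Il5 were below 100 on every array, and Kitl was above it only in CD30high Th1 cells with 104. Of the cytokines that signal through the common gamma chain, Il7, Il9 and Il15 were background on all arrays. Il4 had 59.2 in CD30high and 227 in CD30low Th17 cells and was below 100 in Th1 cells. Il21, which lies next to Il2 on chromosome 3, had 6316 in CD30high and 3174 in CD30low Th17 cells, and 286 in CD30high and 105 in CD30low Th1 cells. The Th17 ratio of CD30high over CD30low cells was 1.99, just under the limit. Its second probe set had 2039 in CD30high and 501 in CD30low Th17 cells, a ratio of 4.07. Il21 was 22.1-fold higher in Th17 than in Th1 among CD30high and 30.2-fold among CD30low cells.

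Among the other helper T cell cytokines, Il17a and Lta were higher in CD30high Th17 cells and Tnf in CD30high Th1 cells. Lta, the gene of lymphotoxin alpha, had 8423 in CD30high and 3468 in CD30low Th17 cells (2.43-fold), and 1832 in CD30high and 928 in CD30low Th1 cells, just under 2-fold. Tnf had 784 in CD30high and 925 in CD30low Th17 cells, and 328 in CD30high and 121 in CD30low Th1 cells (2.71-fold). Of the 8 named genes of this list, 0 were lower in either comparison. The list median of the log2 ratio was -0.10 in Th17 and 0.52 in Th1 cells.

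The receptor chains of the 7 cytokines were largely dim, apart from those of IL-2 and IL-10 and the shared chain gp130. Of 15 chains, 14 were named (Il2rg was not), and 5 of these reached 300. Il6st, which encodes gp130, was lower in CD30high cells of both lineages. It had 62.8 in CD30high and 361 in CD30low Th17 cells (at least 3.61-fold lower), and 386 in CD30high and 777 in CD30low Th1 cells (2.01-fold lower). A second probe set gave 86.5 and 275 in CD30high and CD30low Th17 cells and 281 and 570.4 in CD30high and CD30low Th1 cells, which is the same direction. The other 2 probe sets were below 100 in Th17 cells. Il6st was also lower in Th17 than in Th1 cells, at least 3.86-fold among CD30high and 2.15-fold among CD30low cells. Lifr, its partner for LIF, was below 100 on every array. The chains for IL-24 were also dim. Il20ra and Il22ra1 were below 100 throughout, and Il20rb reached 122 in CD30high Th1 cells only.

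Il2ra, the alpha chain of the IL-2 receptor, was the other chain past the rule. It had 15524 in CD30high and 7707 in CD30low Th17 cells (2.01-fold), and 5956 in CD30high and 4495 in CD30low Th1 cells, which is under it. Among CD30high cells Il2ra was 2.61-fold higher in Th17 than in Th1 cells. A second probe set of Il2ra had 7867 in CD30high and 3602 in CD30low Th17 cells. Il2rb was between 1807 and 2382 on all arrays. The IL-10 receptor chains did not pass in either comparison. Il10ra had 253 in CD30high and 436 in CD30low Th17 cells and 449.6 in CD30high and 400.4 in CD30low Th1 cells, and Il10rb was between 953 and 1549.

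The receptor genes for the colony-stimulating factors did not reach 300. The brightest of 3 probe sets of Csf1r had 130 in CD30high and 30.3 in CD30low Th17 cells and was below 100 in Th1 cells. The second was above 100 in CD30low Th1 cells only, with 106, and the third was below 100 on every array. By the brightest probe sets, Csf2rb, the common beta chain for GM-CSF and IL-3, had 277 in CD30high and 157 in CD30low Th17 cells and was below 100 in Th1 cells. Csf2rb2 exceeded 100 only in CD30high Th17 cells (112), and Csf2ra only in CD30high Th1 cells (145). Il3ra was between 115 and 135 on all arrays. The chain list as a whole had 1 higher and 1 lower gene in CD30high Th17 cells and 0 higher and 1 lower in CD30high Th1 cells, with a median log2 ratio of 0.17 in Th17 and 0.13 in Th1 cells.

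**Figure D4:**
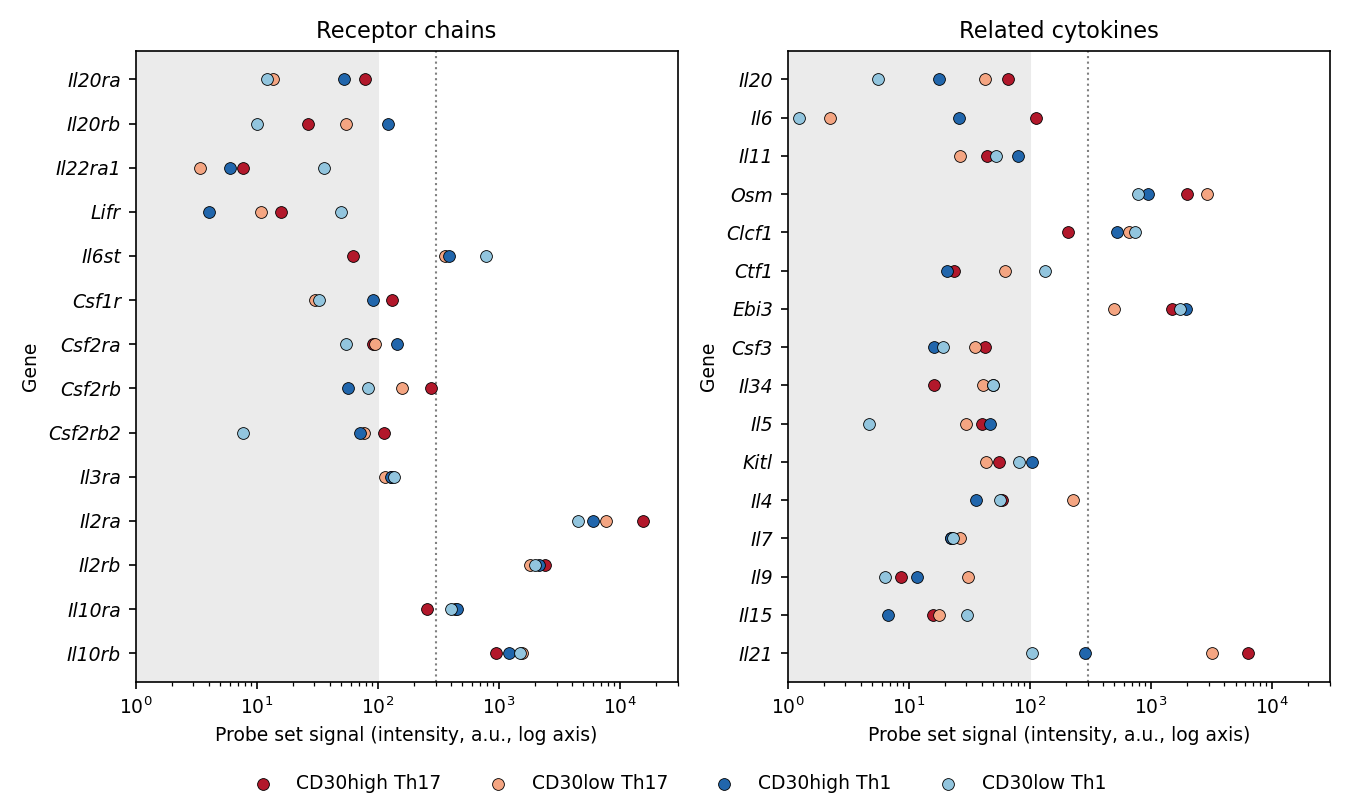
Signals (x axis, intensity in arbitrary units, log axis) of 14 receptor chain genes (left) and 16 related cytokine genes (right), brightest probe set, 1 point per array; grey marks signals below 100 and the dotted line 300. Il6st has its lowest signal in CD30high Th17 cells (62.8), and Il21 is above 3000 in both Th17 arrays and below 300 in both Th1 arrays.

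Genes known to act on the expression of these cytokines were counted next. Of 10 named genes with known roles at Csf2 or Il10, 8 reached 300 in each comparison of the gates. In CD30high Th17 cells 3 were higher and 0 lower, where 3.94% of all genes that reached 300 were higher and 3.66% lower. In Th1 cells 0 passed, where 0.794% were higher and 0.486% lower. The higher ones encode the basic leucine zipper factor NFIL3, with 5704 in CD30high and 1831 in CD30low cells (3.11-fold), the nuclear receptor RORα, with 2482 and 951, and the interferon regulatory factor IRF4, with 7634 and 2929 (2.61-fold each). For Rora 6 of 9 probe sets passed. A dim second probe set of Irf4 gave 212 in CD30high and 145 in CD30low Th17 cells. In Th1 cells Nfil3 had 4029 in CD30high and 2227 in CD30low cells, under the rule. The median log2 ratio of this list was 0.61 in Th17 and 0.23 in Th1 cells.

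Between the lineages the genes with roles at Csf2 or Il10 split. Of 8 that reached 300, 2 were higher and 2 lower in Th17 among CD30high cells. The shares over all genes were 4.98% and 6.86%. Among CD30low cells 1 was higher and 2 lower, against 3.53% and 5.83%. By its brighter probe set Irf4 was higher in Th17 cells (7634 against 1794 in CD30high, 2929 against 1433 in CD30low cells). Rora was higher among CD30high cells only. Maf and Prdm1, factors with a known role in IL-10 expression, were lower in both gates. Maf had 1198 in CD30high Th17 against 5209.7 in CD30high Th1 cells, and 960.3 in CD30low Th17 against 4468 in CD30low Th1 cells. Prdm1 had 536 in CD30high Th17 against 1525 in CD30high Th1 cells, and 478 in CD30low Th17 against 1449 in CD30low Th1 cells. For Maf 5 of 6 probe sets passed the rule in both gates, and the sixth was below 100 on every array.

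Of 10 named factors of IL-2 expression, 9 reached 300 in Th17 and 7 in Th1 cells. In CD30high Th17 cells 0 were higher and 3 lower, against 3.94% and 3.66% over all genes, and 0 passed in Th1 cells. Fos had 159 in CD30high and 842 in CD30low Th17 cells (5.28-fold lower), Egr1 had 1287 and 2632 (2.04-fold lower), and Nfatc1 had 693 and 1418 (2.04-fold lower). Of 5 probe sets of Nfatc1 only the brightest passed. The others had 729.9, 201, 87.2 and 96.7 in CD30high and 944, 212, 205 and 97.0 in CD30low Th17 cells. The list median was -0.43 in Th17 and -0.15 in Th1 cells. Among 10 named JAK-STAT response genes, Socs3, a feedback inhibitor of gp130 signalling, was the only one past the rule between the gates, lower in CD30high Th17 cells with 7716 against 15897 (2.06-fold). The other 2 probe sets of Socs3 gave smaller differences in the same direction, with 3279 and 1817 in CD30high and 6477 and 3130.1 in CD30low Th17 cells. In Th1 cells Socs3 had 3522 in CD30high and 6282 in CD30low cells. Between the lineages 4 genes of this list were higher (Socs1, Socs3, Cish and Bcl3) and 2 lower (Pim2 and Stat4) in Th17 cells, in both gates.

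The genes with the most similar pattern over the 4 arrays were found by the distance between log2 signals, each gene centred on its mean, among 8227 genes with a signal of at least 300. For Il24 these were Gap43 (distance 0.72), the decoy receptor gene Il1r2 (0.75) and Cpd (0.94). Il1r2 had 9955 in CD30high and 2134 in CD30low Th17 cells, and 1060 in CD30high and 429 in CD30low Th1 cells. For Lif they were Crispld2 (0.52), Marcksl1 (0.79) and Il21 (0.82). For Csf1 they were the T cell adaptor gene Trat1 (0.42), Plac8 (0.62) and the chemokine receptor gene Cxcr2 (0.64). Trat1 had 1245 in CD30high and 505 in CD30low Th17 cells, and 5881 in CD30high and 4814 in CD30low Th1 cells. With 4 arrays, such a likeness is a description of these samples.

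Because LIF and CSF1 are also made by stromal and myeloid cells, the markers of other cell types were read on the same arrays. The 7 named T cell markers were above 100 on every array, with Cd4 between 581.8 and 773. Between the gates 0 passed the rule, but 6 of 7 had ratios below 1 in Th17 cells (median log2 ratio -0.47), among them Lat with 3483 in CD30high and 6906 in CD30low cells. In Th1 cells 4 of 7 did (median -0.28). Between the lineages all 7 had lower signals in Th17 than in Th1 cells in both gates, with medians of -0.47 among CD30high and -0.43 among CD30low cells. The part of this in the differences of the members was not tested. Of 10 stromal markers, which include secreted matrix proteins, 7 were below 100 on every array, among them Col1a1, Col1a2, Col3a1 and Pdgfra. Lum and Dcn were nevertheless higher in CD30high Th17 cells, with 6697 and 967 against 768 and 127 in CD30low Th17 cells. The summed signal of the list was 7847 in CD30high and 1171 in CD30low Th17 cells, and 599 in CD30high and 722 in CD30low Th1 cells. Lum and Dcn made up most of this sum in Th17 cells, so only these genes of the list moved there with Il24, Lif and Csf1. A second probe set of Dcn was below 100 on every array. Sparc, the remaining marker above 100 on an array, was below 100 in both Th17 arrays. In Th1 cells Sparc had 241 in CD30high and 346 in CD30low cells. The part of the summed signal in the differences of Il24, Lif and Csf1 was not tested. In Th1 cells Lum and Dcn were below 100 in both gates.

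The summed signal of the myeloid markers was 2429 in CD30high and 7778 in CD30low Th17 cells and 1083 in CD30high and 964 in CD30low Th1 cells. The neutrophil genes S100a8 and S100a9 made up most of it, with 1209.9 and 527 in CD30high and 5192 and 2017 in CD30low Th17 cells. They were below 100 in Th1 cells. Among the 10 myeloid markers Mpo was below 100 on every array, and 2 were lower and 0 higher in CD30high Th17 cells. Of the 7 that reached 100 in Th17 cells, 3 had ratios above 1 and 4 below. The macrophage markers Adgre1, Csf1r and Cd14 were above 100 in CD30high Th17 cells only, with 158, 130 and 104 against 64.8, 30.3 and 26.9 in CD30low Th17 cells, and did not pass the rule. These 3 had the direction of Il24, Lif and Csf1, each by a ratio against background. Lyz2 and Fcgr3 went the other way, with 88.5 and 69.1 in CD30high and 231 and 102 in CD30low Th17 cells. Cd68 and a second probe set of Csf1r were background in both Th17 arrays. All 5 named dendritic cell markers were background on every array. The highest signal of a B cell marker was 148, for Cd79b in CD30high Th1 cells. Of the NK and CD8 markers, Klrd1 was lower in CD30high Th17 cells, with 173 against 355 in CD30low Th17 cells, and the summed signal of that list was 764 in CD30high and 1108 in CD30low Th17 cells and 7195 in CD30high and 9521 in CD30low Th1 cells. Of the mast cell and basophil markers, the gene of the basophil protease Mcpt8 had 470.2 in CD30high against 85.7 in CD30low Th17 cells and was the only one past the rule. Gata2 had the same direction as Mcpt8, with 183 in CD30high and 121 in CD30low Th17 cells. Of the others, Cpa3 had 227 in CD30high and 301 in CD30low Th17 cells, Fcer1a had 29.4 and 151, and Kit had 44.3 and 113. In this list 2 ratios were above 1 and 3 below, with a median log2 ratio of -0.17. The part of these cells in the signals of the 7 cytokines was not tested.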

How the data were processed

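RNA of 4 sorted populations was labelled with biotin and hybridized to 4 Affymetrix GeneChip Mouse Genome arrays, 1 per population. The deposited tables hold intensity, a linear signal per probe set. For these signals the methods name GCOS as the software, while Affymetrix Expression Console stands in the submitters' processing notes. The version, algorithm and scaling target were not given in the sources used here. With the lowest and highest 2% of signals left out, the mean was between 496.5 and 496.8 on every array, as after scaling to a common target, so a shift shared by most genes cannot be seen. No detection calls were used. Symbols were taken from a platform annotation, and gene identifiers linked 34741 of the 34945 single-symbol probe sets to RefSeq (GRCm38.p6), with 932 more carrying several symbols and 9160 unnamed here.

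A gene was represented by its probe set of highest mean signal (18193 genes). Signals below 100 were set to 100, and a 2-fold difference with a signal of 300 in the brighter array was counted, a signal limit given in a legend of the study. With 1 array per group no test was made. The counting was tested on simulated data, with changes well past 2-fold planted in bright genes only. That test does not cover differences near 2-fold, signals near 300 or ratios against background. The members and the 17 lists (152 entries, 22 of them not named in the annotation used here) were chosen with earlier results of these data known. Named were the 7 genes with all probe sets and all their receptor chains. List genes past the rule between the gates were named too (up to 6 per list and comparison, otherwise up to 2 bright ones). Of the list genes past it between the lineages, not all were named. The 3 genes nearest in pattern to each member past the rule in a comparison of the gates were also named. Flanking genes, and a few list genes that did not pass, were named after their values were seen. Alternatives covered the scaling, the fold and signal limits, the floor and the probe set. Python 3.11.15, numpy 2.4.6, pandas 2.3.3 and matplotlib 3.10.9 were used. Precision is limited by the number of arrays.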

Additional observations from a re-analysis of the deposited data

Results flagged for a closer look

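With its brightest probe set, Csf1 had ratios on opposite sides of 1 between the CD30 gates of the 2 lineages. The log2 ratio of CD30high over CD30low cells was 1.52 in Th17 and -0.14 in Th1 cells, a difference of 1.67 that was not tested, since each group had 1 array. The Th1 value is smaller than the SD between probe sets of a gene (0.22), and the other 3 probe sets of Csf1 had ratios above 1 in Th1 cells. The opposite direction was not seen with the mean of the probe sets, which gave 0.54 in Th17 and 0.15 in Th1 cells, or with the most variable probe set, which was background in both Th17 arrays and gave 0.10 in Th1 cells.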

How the results depend on the processing

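The counts of members past the rule stayed within 1.5 times of their value under all 10 alternatives, with 1 exception. With a signal limit of 200, the count in the Th1 comparison of the gates was 2 in place of 1, because Csf2 then counted as lower (75.2 in CD30high against 200.3 in CD30low Th1 cells). In the Th17 comparison of the gates Csf1 no longer counted with a fold limit of 3, the mean of the probe sets or the most variable probe set. Among CD30low cells Il10 no longer counted between the lineages with a signal limit of 500. Of the single log2 ratios recomputed with another scaling, floor or choice of probe sets, 128 moved by less than the SD between probe sets of a gene and 40 by more. No ratio past the rule changed sign. Many of the 128 could not move, so this split is no measure of stability. All members but Lif and Csf1 had a single probe set, Il3 stayed background, and a changed floor leaves signals above it as they were. Median centring lowered the log2 ratio of Il24 in the Th1 gates to 1.82, against 2.05, and a floor of 200 lowered it to 1.46. Over all genes, the counts of higher and lower genes between the gates were 741 and 710 in Th17 and 316 and 279 in Th1 cells with a fold limit of 1.5, and 124 and 131 in Th17 and 10 and 6 in Th1 cells with a limit of 3, against 307 and 285 in Th17 and 62 and 38 in Th1 cells at 2-fold. Between the lineages they were 1084 and 1185 among CD30high and 921 and 1043 among CD30low cells with a limit of 1.5, and 154 and 261 among CD30high and 102 and 182 among CD30low cells with 3, against 397 and 547 and 277 and 458. With a signal limit of 200, 114 genes were higher and 57 lower in the Th1 gates, and with one of 500, 42 and 29. With the mean of the probe sets, over fewer genes, 199 were higher and 193 lower in the Th17 gates, 41 and 20 in the Th1 gates, and 244 and 386 between the lineages among CD30high and 179 and 322 among CD30low cells. Signals under the background limit leave only a bound or no ratio between the gates for Lif and Csf2 in Th1 cells, Il10 in Th17 cells, and Il2 and Il3 in both lineages. No paired analysis was possible because each group had 1 array.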
